A study of Homo sapiens with 40 samples.

Results

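The genes described here are 8 tissue kallikreins (KLK2, KLK3, KLK4, KLK5, KLK6, KLK10, KLK11 and KLK13) and FKBP5, 9 of the 60279 genes listed in the count tables. The group was chosen by measured values of the same cells, because KLK3 had reads in NEB cells and in no G&T or Takara cell. The levels of KLK3 by protocol are therefore a description. Of the 9 genes, 3 had reads in any kept cell (FKBP5, KLK3 and KLK10), and 6 had none (KLK2, KLK4, KLK5, KLK6, KLK11 and KLK13). In all, 25364 genes had reads in a kept cell.

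The study benchmarked full-length single cell RNA sequencing protocols on T47D, an established line of luminal breast cancer cells. All cells are given as passage 10 and were grown in medium with fetal bovine serum, and no hormone treatment is given for any group. Live cells positive for EpCAM and CD49f were sorted into plates, and their RNA was amplified with the NEBNext Single Cell/Low Input kit (NEB), the SMART-seq HT kit (Takara) or genome and transcriptome sequencing (G&T). The 3 groups thus share the line, the passage and the sorting gate, and differ in lysis buffer and protocol. By the paper's methods each protocol was sequenced in a run of its own, so that run and protocol coincide. Whether the groups came from 1 culture or sort is not given in the sources used here. Each protocol is 1 sample, its effect and that of any such batch cannot be told apart, and no test was made.

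Tissue kallikreins are secreted serine proteases encoded side by side on chromosome 19, and several of them are switched on by steroid hormones. KLK3 encodes prostate-specific antigen, which liquefies semen, and the gene is a textbook example of induction by androgens. FKBP5 encodes FKBP51, a co-chaperone of HSP90 that lowers the hormone affinity of the glucocorticoid receptor, and its gene is induced by glucocorticoids, progestins and androgens. T47D cells are known for high progesterone receptor levels.

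KLK2 is the closest relative of KLK3, and their coding sequences were identical at 668 of 783 aligned bases (85.3%), while the next closest pair of kallikreins in the group was at 66.4%. The sequences below show how far reads of the 2 genes can be told apart. They are the 120 bases of coding exon 4 with the most differences between both genes (28), from GRCh38, on the plus strand, at chr19:50858474-50858593 for KLK3 and chr19:50876887-50877006 for KLK2. Capitals mark the bases that differ.
KLK3: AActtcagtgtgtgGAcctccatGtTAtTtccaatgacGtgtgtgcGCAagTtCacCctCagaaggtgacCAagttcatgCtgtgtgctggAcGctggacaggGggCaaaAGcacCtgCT
KLK2: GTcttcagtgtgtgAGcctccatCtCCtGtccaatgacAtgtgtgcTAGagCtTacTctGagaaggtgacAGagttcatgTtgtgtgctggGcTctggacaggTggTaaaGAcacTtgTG
Over the whole main transcript of KLK3, 11 of 1415 words of 50 bases (0.777%) also occur in another gene, in each case KLK2. For FKBP5 none of 3701 words did. Words shared with an antisense non-coding gene made up 22.2% for KLK6 and 10.8% for KLK5, and 5.14% of the KLK10 words occurred in another gene. The strand setting behind the counts is not stated, so reads that fall in stretches shared with an antisense gene cannot be told apart here.

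The promoters of KLK3, KLK2 and FKBP5 were the ones in the group with the closest matches to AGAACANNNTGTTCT, the consensus letters of the response element shared by the progesterone and glucocorticoid receptors, which read the same on both strands. Shown are the 250 bases before a RefSeq start of each gene, 5′ to 3′ on the gene's own strand (GRCh38.p14), with the best match in capitals. They lie at chr19:50854665-50854914 (plus strand) for KLK3, chr19:50873189-50873438 (plus strand) for KLK2 and chr6:35728584-35728833 (minus strand) for FKBP5.
KLK3: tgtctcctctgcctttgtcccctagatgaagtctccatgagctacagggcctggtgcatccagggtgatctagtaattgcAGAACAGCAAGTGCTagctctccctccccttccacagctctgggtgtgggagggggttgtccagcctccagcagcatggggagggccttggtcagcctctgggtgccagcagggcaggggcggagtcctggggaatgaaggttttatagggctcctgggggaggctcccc
KLK2: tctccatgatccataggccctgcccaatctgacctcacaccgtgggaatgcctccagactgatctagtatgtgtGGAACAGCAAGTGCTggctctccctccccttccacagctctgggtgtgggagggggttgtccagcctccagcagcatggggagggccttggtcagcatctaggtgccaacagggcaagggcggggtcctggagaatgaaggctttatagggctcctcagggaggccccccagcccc
FKBP5: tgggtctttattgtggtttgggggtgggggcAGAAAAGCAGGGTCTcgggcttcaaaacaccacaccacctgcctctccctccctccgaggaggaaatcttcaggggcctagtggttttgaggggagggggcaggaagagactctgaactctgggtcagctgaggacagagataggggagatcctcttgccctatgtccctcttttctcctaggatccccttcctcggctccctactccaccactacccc
The KLK3 match had 10 of the 12 fixed letters, at -170 to -156 from the start. The KLK2 match had 9 of 12 at -176 to -162, and the FKBP5 match 9 of 12 at -219 to -205. The other listed RefSeq start of FKBP5 had a best match of 7 of 12, fewer than the 8 of KLK10. The place of FKBP5 among the closest matches thus rests on the start shown. All 9 genes were found in the promoter table, with 14 windows of 300 bases in all. Of all promoters in the table, 10 or more letters were matched in 1.41% of 35116 windows of that length, and 9 or more in 10.8%. A match is a description of letters in this window, and nothing was measured at these sites.

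After the quality filter 11 cells per protocol were kept of 13 G&T, 13 Takara and 14 NEB cells. Library sizes (reads on genes and ERCC spike-ins) ran from 672328 to 1192383 reads in G&T, from 827663 to 1297218 in Takara and from 720899 to 1021613 in NEB. A cell had 9541 to 12794 genes with reads with G&T, 10624 to 11855 with Takara and 4416 to 6719 with NEB. NEB cells thus had fewer genes, at a median library (811658 reads) similar to that of G&T (818577) and below that of Takara (1074823). ERCC spike-ins took 1.37% to 2.75% of the G&T libraries, 0.538% to 1.33% of the Takara libraries and 5.66% to 18.9% of the NEB libraries. All 6 luminal breast markers (EPCAM, KRT8, KRT18, KRT19, GATA3 and FOXA1) had reads in each protocol. Levels below are in CPM, the reads of a gene scaled to a fixed total of reads on genes, and pooled levels sum the reads of the 11 kept cells of a protocol. Their 95% exact Poisson intervals, and the exact binomial intervals of shares of cells, cover counting error only, since the reads carry no molecular identifiers.

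KLK3 (ENSG00000142515) is a gene of 5 exons at chr19:50854915-50860764 on the plus strand of GRCh38. In NEB cells its reads numbered 47 in well C1, 25 in each of A1, D1 and E1, 13 in each of C2, G2 and H2, 11 in each of A2 and E2, 2 in D2 and 0 in B1. Nearly every NEB cell thus had some reads of KLK3, and its highest cell held 25.4% of the 185 pooled reads.
The 11 G&T cells and the 11 Takara cells each had 0 reads, which is what chose the group. The 7 cells left out by the filter, 3 of them NEB cells, had 0 reads as well.

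In NEB the pooled level of KLK3 was 23.2 CPM (20.0 to 26.8), rank 4757 of 12479 genes with reads in that protocol. Per cell the median was 18.5 CPM, the highest 71.9 CPM and the mean 23.5 ± 19.7 CPM (SD, n = 11 cells of 1 sample). The share of NEB cells with reads was 90.9% (58.7% to 99.8%). For 0 of 11 cells in G&T and in Takara, the exact interval reaches a share of 28.5%, and the rule of 3 counts for a count of 0 gives 27.3%.
A count of 0 also allows up to 0.316 CPM in G&T and 0.256 CPM in Takara, taken as 3 reads over the protocol. Against these limits KLK3 was at least 73.5-fold higher in NEB than in G&T and at least 90.6-fold higher than in Takara. This contrast chose the group, and nothing is read from it.

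**Figure D1:**
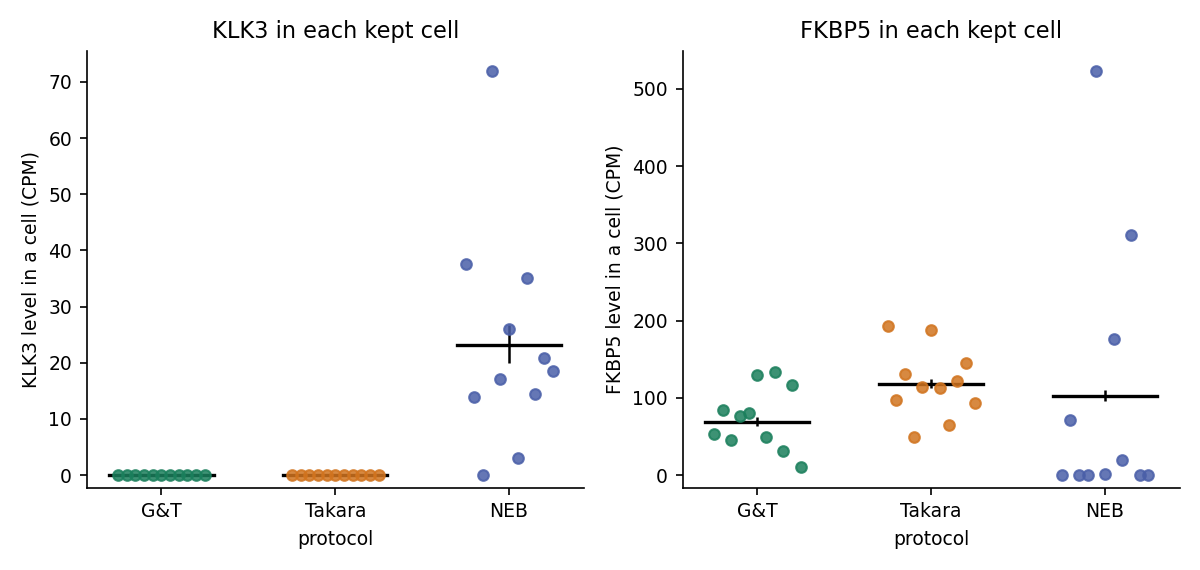
Level of KLK3 (left) and FKBP5 (right) in each kept cell, in CPM on a linear axis, with 11 cells per protocol as points. Black lines are the pooled levels with 95% Poisson intervals. KLK3 is at 0 in every G&T and Takara cell and in 1 NEB cell, while FKBP5 is spread from 0 to 523 CPM over the NEB cells.

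Of all genes with reads in a kept cell, 607 (2.39%) had reads in NEB cells and in no kept G&T or Takara cell, and KLK3 was the 1 member among them. Most of these genes, 520, had reads in 1 NEB cell, and 55 had reads in 2. The widest after KLK3 reached 6 NEB cells, namely CYP24A1 with 33 pooled reads and PTENP1 with 9, named after their values were seen. KLK3 had reads in 10. Since reads in NEB alone chose the group, nothing is read from its place among these genes.

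By pooled NEB reads KLK3 had rank 2 among these 607 genes. ENSG00000272077 had rank 1, with 193 reads, of which 1 cell of the 2 with reads held 91.7%. FAM133A had rank 3, with 129 reads in 2 cells, of which 1 cell held 98.4%. The reads of KLK3 were thus spread over more cells than those of both neighbours, which describes the values that chose the group.

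Most genes with a similar number of NEB reads had reads in fewer cells. Of 2908 genes with 100 to 400 pooled NEB reads, a band set after the values were seen, the median gene had reads in 5 NEB cells (quartiles 3 and 7), and its highest cell held 43.6% of its reads. In this band 154 genes (5.3%) had reads in at least 10 of the 11 cells, the number at which KLK3 itself stands. Since that number was taken from KLK3, whose NEB reads chose the group, nothing is read from its place here.

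**Figure D2:**
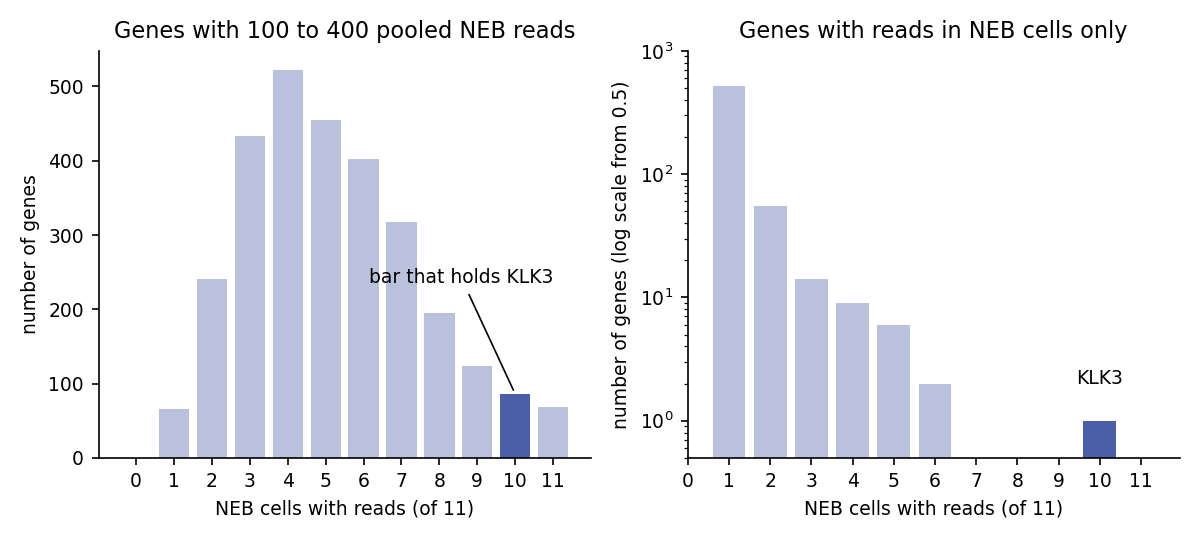
Number of genes (bars) by how many of the 11 kept NEB cells had reads, for genes with 100 to 400 pooled NEB reads (left, linear axis) and for the 607 genes with reads in NEB cells alone (right, log axis). The dark bar on the left holds KLK3 and other genes with reads in 10 cells, and the dark bar on the right is KLK3, with no gene between it and those in 6 cells.

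KLK2, which encodes a trypsin-like protease that can activate the KLK3 precursor, had no read in any of the 40 deposited cells. KLK4, known for processing the enamel matrix, had none in kept cells either. The same held for KLK5 and KLK13, proteases of stratified epithelia, for KLK6, known from the nervous system, and for KLK11. For each of these 6 genes, 0 reads allow up to 0.316 CPM in G&T, 0.256 CPM in Takara and 0.376 CPM in NEB. Lower levels were not detectable at this depth.

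KLK10 (ENSG00000129451), known for its loss in many breast tumours, had 5 reads in 1 G&T cell (well E1) and 0 in the other 32 kept cells. Its pooled G&T level was 0.526 CPM (0.171 to 1.23). It was 1 of the 6229 genes (24.6%) with reads in G&T cells and in no Takara or NEB cell.

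Among the other 7 tissue kallikreins, KLK1 and KLK8 had reads. KLK1 encodes tissue kallikrein itself, which releases kinins. In G&T cells it had 7 reads in well G1, 4 in C1 and 3 in each of B2, D1 and E2, and 0 in the other 6 cells. In NEB cells it had 16 reads in C2 and 11 in B1, and Takara cells had none.
Its pooled level was 2.11 CPM in G&T and 3.39 CPM in NEB, with a ratio of 1.61 (0.869 to 3.02) whose counting interval includes 1. KLK8, a protease of skin and brain, had 9 reads in 1 Takara cell (C1), and it overlaps KLK9 and a read-through gene on the same strand. In all, 4 of the 15 tissue kallikreins had reads in kept cells and 11 had none.

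Seen by cell, 10 NEB cells had reads of 1 kallikrein and 1 cell (C2) had reads of both KLK1 and KLK3. B1, the NEB cell without KLK3, was the other cell with KLK1. No kallikrein was seen in 5 G&T cells and in 10 Takara cells, compared with 0 NEB cells. The NEB number rests on KLK3, whose reads chose the group, since only B1 and C2 had another kallikrein. Nothing is read from this contrast. The stretch from KLK1 to KLK14 spans 265.1 kb at chr19:50819146-51084245, and of 25 listed genes in it 5 had reads: KLK1, KLK3, KLK8, KLK10 and the pseudogene PPIAP59. KLK15 and KLK2, the kallikreins on either side of KLK3, were at 0 in all 3 protocols.

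**Figure D3:**
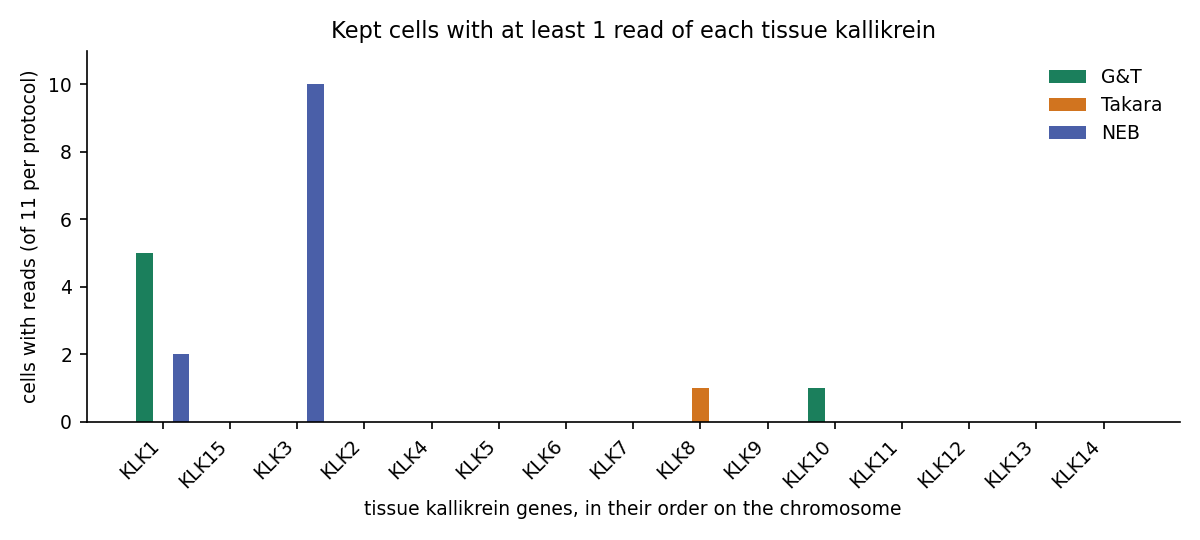
Number of kept cells (of 11 per protocol, vertical axis) with at least 1 read of each of the 15 tissue kallikreins, in chromosome order, with bars coloured by protocol. KLK3 reaches 10 NEB cells, KLK1 5 G&T and 2 NEB cells, KLK8 and KLK10 1 cell each, and the other 11 genes are at 0.

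FKBP5 (ENSG00000096060) is a gene of 11 exons at chr6:35573585-35728583 on the minus strand. In G&T its reads per cell ran from 10 to 100 with a median of 57, and in Takara from 51 to 211 with a median of 116. Every cell of both protocols had reads, and the 2 ranges overlapped. In NEB the reads numbered 396 in well C2, 236 in E2, 116 in D2, 57 in A2, 14 in E1, 1 in D1 and 0 in each of A1, B1, C1, G2 and H2.
NEB cells thus held both the highest and the lowest counts of the kept cells. At the depth of the smallest kept library, 5.66 NEB cells would be expected to have reads, against 6 at full depth. Detection in 6 of 11 NEB cells was 54.5% (23.4% to 83.3%).

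Pooled FKBP5 was highest in Takara at 118 CPM (112 to 125), followed by NEB at 103 CPM (95.9 to 110) and G&T at 69.2 CPM (64.0 to 74.7). Cell means were 119 ± 44.8 CPM (SD, 11 cells each) for Takara, 100.2 ± 172 CPM for NEB and 73.6 ± 40.4 CPM for G&T. In the order Takara, NEB, G&T, neither pair of neighbours differed by more than the spread over NEB cells. Takara and G&T lay apart by slightly more than the SD of either. As a share of the mean, the SD was 37.6% for Takara, 54.9% for G&T and 172% for NEB. The median Takara cell had 114 CPM, the median G&T cell 76.0 CPM and the median NEB cell 1.04 CPM.

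Well C2 held 48.3% of the NEB reads of FKBP5. Without that cell the NEB level was 58.8 CPM in place of 103, and the log2 ratio of NEB over G&T, each protocol without its highest cell, was -0.11 in place of 0.57. With all cells the ratio of pooled levels was 1.49 (1.34 to 1.65) for NEB over G&T, 0.869 (0.796 to 0.948) for NEB over Takara and 0.584 (0.532 to 0.641) for G&T over Takara. The size of the NEB level thus rested on 1 cell.

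A 2-fold rule on pooled levels, applied to log2 of CPM plus 1, set the members beside all genes with reads in either protocol of a pair. Of the 3 members with reads in NEB or G&T, KLK3 was at least 2-fold higher in NEB and none was lower, against 12.4% and 30.9% of 23295 genes. Of the 2 with reads in NEB or Takara, again KLK3 was higher and none lower, against 17.2% and 30.9% of 19135 genes. KLK3 was chosen for its reads in NEB alone, so nothing is read from its call in these 2 comparisons. Of the 2 with reads in G&T or Takara none was higher or lower, against 15.2% and 10% of 24757 genes. FKBP5 stayed inside the 2-fold band in every pair. The same rule gives a log2 difference of 4.60 for KLK3 in both comparisons with NEB, which depends on the 1 CPM added and is no bound.

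Loss of detection as seen for FKBP5 was common in NEB. Of 4875 genes with reads in each of the 22 kept G&T and Takara cells, 1853 (38%) had reads in at most 6 NEB cells, FKBP5 among them. FKBP5 was in the upper part of the expressed range in all protocols, with rank 2515 of 22428 genes with reads for G&T, 1751 of 18015 for Takara and 1857 of 12479 for NEB. Per kilobase of exon, FKBP5 was at 11.1 CPM for Takara, 9.68 for NEB and 6.51 for G&T, and KLK3 at 5.00 for NEB. The length used here and below is the union of all annotated exons of a gene, so genes are only roughly comparable on this scale. It is 10628 bases for FKBP5 and 4639 for KLK3, where the main transcripts have 3750 and 1464. The NEB rank and level of FKBP5 rest on few cells, with 1.04 CPM in the median cell. Without the highest NEB cell of each gene, FKBP5 was at 5.53 CPM per kilobase and KLK3 at 4.06.

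Steroid receptors were measured in the same cells. PGR, the progesterone receptor, had the highest pooled level of the 5 receptors listed in each protocol, also per kilobase, with 1068 CPM for NEB, 428 CPM for G&T and 164 CPM for Takara, and reads in every cell. ESR1, the oestrogen receptor, was also in every cell, at 877 CPM for NEB, 235 for G&T and 73.1 for Takara.
NR3C1, the glucocorticoid receptor, was at 17.3 CPM in 4 NEB cells, 9.37 CPM in 6 G&T cells and 4.01 CPM in 5 Takara cells, with between 46.1% and 57.4% of its reads in 1 cell of each protocol. ESR2 had 3 reads in 1 G&T cell and none elsewhere, and NR3C2, the mineralocorticoid receptor, had no read in a kept cell. NEB thus had more PGR and ESR1 than either other protocol.

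Over the receptor list, 3 of 4 with reads were at least 2-fold higher in G&T than in Takara and 0 lower, with a median log2 ratio of 1.21 against 0.14 over all genes. Without G&T cell D1 the log2 ratio of NR3C1, 1 of these 3, was 0.36 in place of 1.05. For NEB over G&T, 2 were higher (PGR and ESR1) and 0 lower, with a median of 1.07 against -0.40. All 3 with reads in NEB or Takara were higher in NEB, with a median of 2.69 against -0.27. Over all genes 15.2% were higher and 10% lower in G&T than in Takara. For NEB these shares were 12.4% and 30.9% against G&T, and 17.2% and 30.9% against Takara. FKBP5 did not share the order of the receptors, being highest in Takara, where each of PGR, ESR1 and NR3C1 was lowest.

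Among NEB cells, the one with most KLK3 had the least PGR and ESR1. B1, without KLK3, had the most PGR of all NEB cells (2337 CPM), and C1 the least (99.5 CPM). The same 2 cells had the most and the least ESR1 (2086 and 225 CPM). Across the 11 NEB cells, Spearman's rho of KLK3 was -0.827 with PGR (Pearson's r -0.753) and -0.718 with ESR1 (r -0.668).
Leaving out 1 cell at a time, rho stayed between -0.903 and -0.770 for PGR and between -0.806 and -0.624 for ESR1. With NR3C1 rho was 0.168 (r 0.143). With the ERCC share rho was 0.464 (r 0.550), and its part in these relations was not tested. The cells share a protocol, and each level is a share of its own cell's reads.

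**Figure D4:**
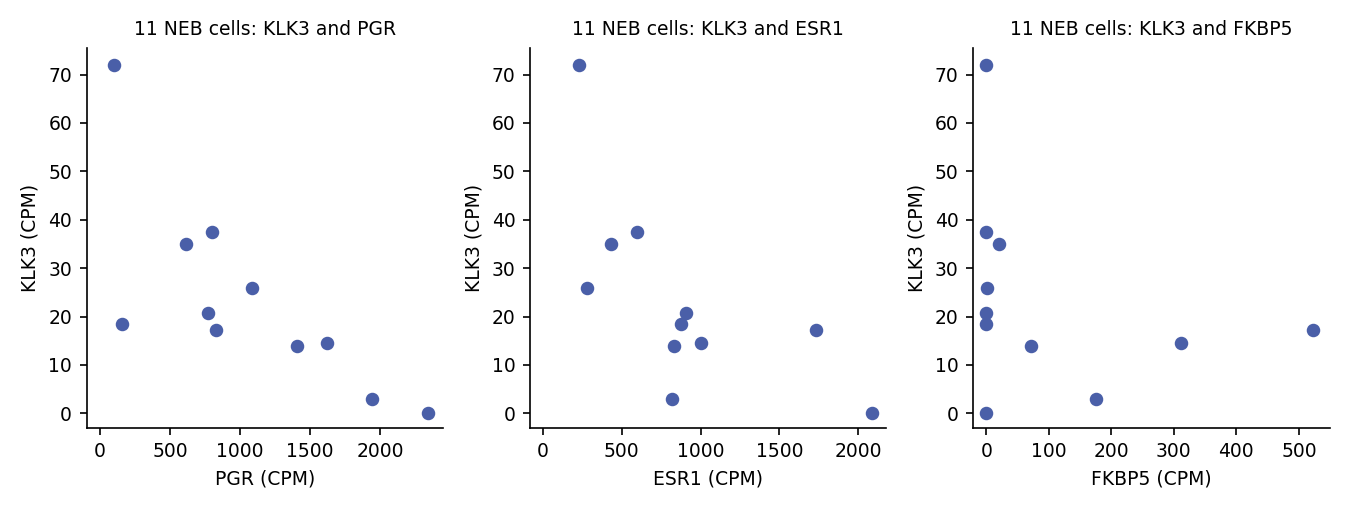
KLK3 level (vertical axis, CPM) in each of the 11 kept NEB cells beside the level of PGR (left), ESR1 (middle) and FKBP5 (right) in CPM, all on linear axes. The cell with the most KLK3, 71.9 CPM, has the least PGR and ESR1, and the cell without KLK3 has the most of both.

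FKBP5 and KLK3 did not go together in NEB cells (rho -0.410, r -0.299). The 4 NEB cells with at least 57 FKBP5 reads had 2 to 13 KLK3 reads. Every NEB cell with FKBP5 had some KLK3, and of the 5 cells without FKBP5, 4 had KLK3. Within protocols FKBP5 had a rho with PGR of 0.709 (r 0.630) for G&T, 0.5 (r 0.284) for Takara and 0.439 (r 0.184) for NEB. The rho of FKBP5 with the number of genes detected was 0.745 (r 0.789) for G&T, -0.40 (r -0.414) for Takara and 0.40 (r 0.0626) for NEB. With the ERCC share it was -0.655 (r -0.630), 0.364 (r 0.358) and -0.686 (r -0.253) in the same order, so that both relations had opposite signs in G&T and Takara. Their part in the relations with PGR and KLK3 was not tested.

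By likeness over cells, the 3 genes closest to KLK3 were LANCL1 (rho 0.915), SP1 (0.891) and H2AZ1 (0.882), over 11 NEB cells and among 4542 genes with reads in at least 6 of them. For FKBP5, with the rho averaged over the 3 protocols and 33 cells, they were WSB2 (0.665), TTF2 (0.642) and LRIG1 (0.623), among 4421 genes. For WSB2 the rho was 0.873 over G&T cells, 0.664 over Takara cells and 0.458 over NEB cells. These are the highest of many values over few cells.

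FKBP51 works within the chaperone cycle that loads steroid receptors with hormone. All 12 listed genes of that cycle had reads in every G&T and Takara cell, compared with 6 of 12 in every NEB cell. Such loss was common: of 4875 genes with reads in every G&T and Takara cell, 38% had reads in at most 6 NEB cells. In this list PPID, CDC37 and PPP5C did. Nothing particular to the cycle is read from these counts. HSP90AA1, the inducible HSP90, had the most reads in G&T (4346 CPM) and in NEB (5436 CPM), and HSPA8, the HSP70 that first binds the receptor, in Takara (4570 CPM). Per kilobase HSP90AB1, the constitutive HSP90, was close to them, with 850 CPM beside 853 for HSP90AA1 in G&T and both HSPA8 and HSP90AB1 at 942 in Takara, and it led in NEB with 1234 CPM. PPP5C, a phosphatase of the mature complex, had no read in NEB.
FKBP4 encodes FKBP52, the relative that takes the place of FKBP51 when hormone binds. Per kilobase, FKBP4 was at 178 CPM for Takara, 54.2 for G&T and 15.5 for NEB, above the per kilobase level of FKBP5 in each protocol. It was at 0.287-fold its G&T level in NEB (0.263 to 0.313), where FKBP5 was at 1.49-fold. Without NEB well C2 alone, the log2 ratio of FKBP5 in NEB over G&T was -0.23 in place of 0.57. For FKBP4 without its own highest NEB cell it was -2.06 in place of -1.79.

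Over the list, 0 genes were at least 2-fold higher and 5 lower in G&T than in Takara (median log2 ratio -0.70, all genes 0.14). In NEB, 1 was higher and 5 lower than in G&T (median -0.28, all genes -0.40), and 2 were higher and 7 lower than in Takara (median -1.60, all genes -0.27). Over all genes 12.4% were higher and 30.9% lower in NEB than in G&T, and 17.2% and 30.9% against Takara. For G&T over Takara these shares were 15.2% and 10%. ST13, which hands clients from HSP70 to HSP90, was higher in NEB against both. STIP1, the adaptor that joins HSP70 and HSP90, CDC37, FKBP4, DNAJA1 and PPP5C were lower in NEB against both.

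**Figure D5:**
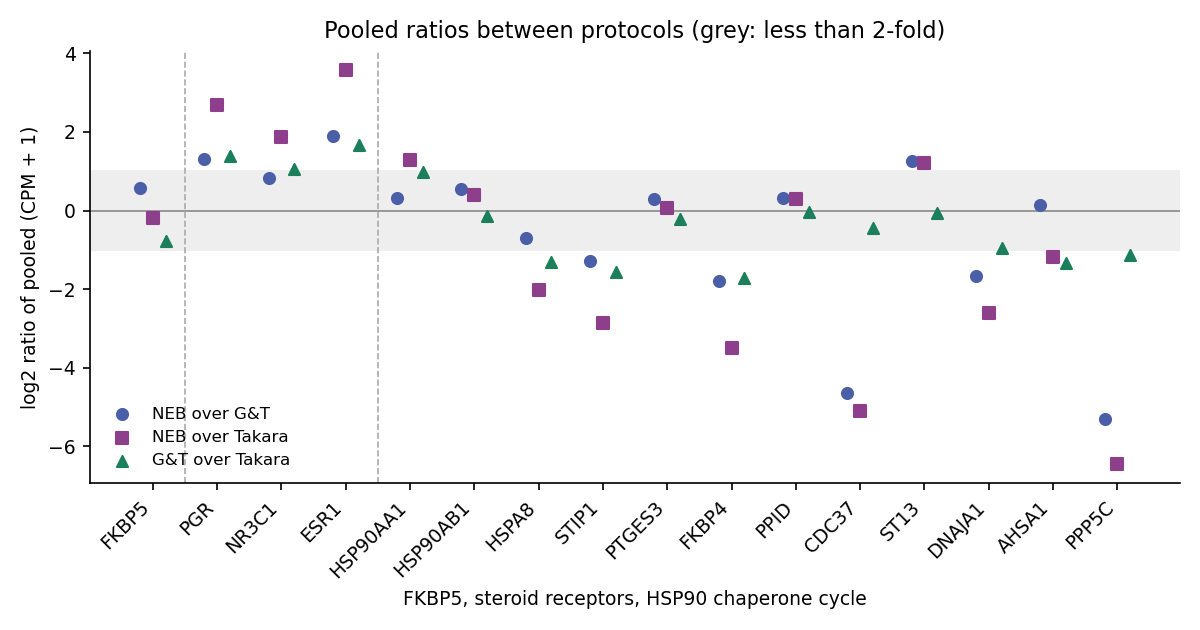
Log2 ratio of pooled CPM plus 1 between protocols (vertical axis) for FKBP5, 3 steroid receptors and the 12 genes of the HSP90 chaperone cycle, with 1 marker shape per pair of protocols and the grey band marking less than 2-fold. FKBP5 lies inside the band in all 3 pairs, PGR and ESR1 lie above it in all 3, and CDC37 and PPP5C are the lowest in NEB.

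Other genes known to be induced by steroid hormones were read in the same cells. Of 18 listed, 17 had reads in G&T cells, 15 in Takara cells and 6 in NEB cells, where over all genes 22428, 18015 and 12479 had reads. Of the 18, ZBTB16, a glucocorticoid target, had no reads. AZGP1, a secreted glycoprotein, had the most reads in G&T (102 CPM), but 67.1% of them were in well G1, and without that cell it was at 36.6 CPM, below ACSL3, an acyl-CoA ligase, at 86.3 CPM. ACSL3 had the most reads in Takara (167 CPM) and NEB (109 CPM). Per kilobase AZGP1 (39.6 CPM) led in G&T, or 14.2 CPM without G1.
PIP, a secreted prolactin-induced protein, had the highest level per kilobase in Takara (13.1 CPM) and NEB (7.81 CPM). Well A1 held 61.8% of its Takara reads and well E1 100% of its NEB reads. Without those cells PIP was at 5.43 CPM per kilobase in Takara and 0 in NEB, below ACSL3 at 11.5 and 7.54 CPM per kilobase over all cells.
NDRG1 (13 reads) and SGK1, a glucocorticoid-induced kinase (4 reads), had reads in G&T alone.
Over the list, 1 gene was at least 2-fold higher and 9 lower in NEB than in G&T, with a median log2 ratio of -1.18, or -1.70 with genes without reads in 1 protocol set at their bounds. Against Takara 1 was higher and 10 lower, with a median of -1.79, or -1.95 at the bounds. For G&T over Takara 2 were higher and 2 lower, with a median of -0.17 both ways. Over all genes 12.4% were higher and 30.9% lower in NEB than in G&T (median -0.40), 17.2% and 30.9% against Takara (median -0.27), and 15.2% and 10% for G&T over Takara (median 0.14).
The higher gene in NEB was in both cases ELL2, an elongation factor, with 127 reads in 5 cells (15.9 CPM). Well D2 held 50.4% of these reads, and without it ELL2 was at 8.61 CPM, with log2 ratios of 0.20 over G&T and 0.41 over Takara in place of 1.02 and 1.23. Without the cell with most of its reads in 1 of the 2 protocols, 3 of the 10 genes past the rule for NEB over G&T fell back inside it, as did 3 of 11 for NEB over Takara and 2 of 4 for G&T over Takara.

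Inhibitors that bind kallikreins after secretion were also read. Of 8 listed, 6 had reads in G&T cells, 4 in Takara cells and 4 in NEB cells. SPINT2, a Kunitz inhibitor, was the highest in G&T (322 CPM) and NEB (112 CPM), and its relative SPINT1 in Takara (471 CPM, beside 467 CPM for SPINT2), also per kilobase. SERPINA3 and SERPINA5, plasma inhibitors known to bind KLK3, had no read in a kept cell.
A2M, which also traps KLK3, had 10 reads and SPINK6 1 read, each in 1 G&T cell and nowhere else. In NEB 0 inhibitors were at least 2-fold higher than in G&T and 4 were lower (median log2 ratio -1.28, or -1.50 at the bounds), and 0 were higher and 3 lower than in Takara (median -2.41). Over all genes these shares were 12.4% and 30.9% against G&T (median -0.40), and 17.2% and 30.9% against Takara (median -0.27). For G&T over Takara 1 was higher, A2M, and 1 lower, SPINT1 (median -0.26, or -0.27 at the bounds). Over all genes 15.2% were higher and 10% lower for that pair.

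Since KLK3 is best known from the prostate, 7 genes used as prostate markers were read in the same cells. Of them 5 had reads in G&T cells, 4 in Takara cells and 1 in NEB cells, where over all genes 22428, 18015 and 12479 had reads. Their summed level in a cell ran from 0 to 24.0 CPM in G&T, from 0 to 27.7 CPM in Takara and from 0 to 259 CPM in NEB. The NEB sum came from STEAP2, a metalloreductase (594 reads in 7 cells, 74.5 CPM).
HOXB13, ACP3, FOLH1, TGM4, MSMB and SLC45A3 were at 0 in NEB. STEAP2 was 13.9-fold its G&T level in NEB (10.4 to 18.9) and 16.2-fold its Takara level (12.2 to 21.8). HOXB13, which defines the prostate lineage, had 1 read in 1 G&T cell. The 6 luminal breast markers summed to between 1191 and 4194 CPM in an NEB cell, compared with 3828 to 14312 CPM in a G&T cell and 9857 to 26570 CPM in a Takara cell. Of these markers 3 were at least 2-fold lower in NEB than in G&T (KRT8, KRT18 and KRT19), 4 than in Takara (the same and EPCAM), and 0 were higher in either case. Over all genes 30.9% were lower and 12.4% higher in NEB than in G&T, and 30.9% and 17.2% against Takara. KRT8, a keratin of simple epithelia, was at 0.0200-fold its G&T level in NEB (0.0185 to 0.0216) and 0.0162-fold its Takara level (0.0150 to 0.0175). Without the G&T cell with most KRT18 reads its log2 ratio of NEB over G&T was -0.92 in place of -1.18. The immune and endothelial markers PTPRC and PECAM1 had reads in G&T alone, 2 and 12.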

How the data were processed

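Single T47D cells were measured by full-length RNA sequencing with 3 protocols. The deposited values are raw counts of reads per gene, with no normalization and no molecular identifiers. For these counts the authors trimmed reads with Trim Galore, aligned them with STAR to GRCh38 and merged the cells of a protocol. The annotation release and strand setting are not given in the sources used here. No deposited column was left unmapped to a cell.

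Cells with under 1000 genes, a library under 600000 reads, over 30% mitochondrial or over 25% ERCC reads were left out (7 of 40), as in the study's methods. The rule for the group removes the same cells. Levels are summed reads of the kept cells, scaled to CPM over genes. Log2 ratios had 1 CPM added to both levels, with a 2-fold rule in place of a test, 95% exact intervals and a limit of 3 reads for a count of 0. Symbols, positions and exon lengths came from GENCODE release 44 (73 of 73 symbols matched). Named genes are the members, the highest gene of each list in each protocol, those with reads in 1 protocol, and the 3 most alike by rank correlation, and for KLK3 the NEB-only genes with most reads. Genes past the 2-fold rule, partners of FKBP5 and marker genes were named in addition after their values were seen. Some listed genes are not reported here. Members and lists were chosen with earlier results of these data known.

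Alternatives covered the cells kept, detection at 5 reads, thinning, pooling, ERCC reads, TMM scaling (edgeR 4.0.16), the added CPM, a minimum of 10 reads and the highest cell. Steps were tested on simulated data. Python 3.11.15 with pandas 2.3.3, scipy 1.17.1 and Biopython 1.88, and R 4.3.3 were used.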

Additional observations from a re-analysis of the deposited data

Results flagged for a closer look

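The cells left out by the quality filter lie outside the comparisons above, and 3 values stood out among them because they were above the limit that a count of 0 allows. KLK6 had 14 reads in G&T cell C2, which had 33.7% mitochondrial reads, whereas no kept cell had a read of KLK6. FKBP5 had 31 reads in the same cell (43.9 CPM) and 47 reads in G&T cell F1 (80.6 CPM), which had a library of 596867 reads. Both FKBP5 levels lay within the range of the kept G&T cells.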

How the results depend on the processing

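Of 84 settings tried for the counts of members and cells and for the FKBP5 levels, 75 stayed within a set tolerance, namely 1.5 times for counts of members, the binomial interval for numbers of cells and the Poisson interval for levels, and 0 reversed. Within it, at least 5 reads left KLK3 in 9 and FKBP5 in 5 NEB cells, and over all deposited cells 3 members had reads in G&T in place of 2 and FKBP5 in 13 G&T cells in place of 11. Some of the 84 settings could not move. A KLK3 count of 0 in G&T and Takara stays 0 under thinning or the minimum of 5 reads. The member at least 2-fold higher in NEB was in each setting KLK3, which chose the group. Without the cell with the most reads, the FKBP5 level was 63.6 CPM in G&T, 111 CPM in Takara and 58.8 CPM in NEB. The NEB level was 91.4 CPM over all deposited cells and 90.9 CPM with ERCC reads in the total. The number of members at least 2-fold higher in G&T than in Takara, and at least 2-fold lower in NEB than in G&T, was 1 in place of 0 over all deposited cells (KLK6) and with 0.1 CPM added (KLK10). Of 47 settings of the log2 ratios, 45 stayed on the same side of the 2-fold rule and 44 kept their sign. By the tolerance set for ratios, 33 of the 47 stayed and 14 moved. With ERCC reads in the total, the ratios of genes above 10 CPM moved by a median of -0.15 for NEB over G&T and -0.16 for NEB over Takara, and the FKBP5 ratios were 0.42 and -0.36. No paired analysis was possible because no test was made, and wells with the same name hold different cells.

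The levels of the other lists without the cell with most reads of a gene were computed after seeing the data. Each protocol was 1 sample, so values between protocols have no replicate check. For a gene without reads, levels under the limit of 3 pooled reads were not detectable.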
